A study of Caenorhabditis elegans with 2 samples.

Results

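The sites described here are the HMG-1.1 binding sites on the X chromosome of Caenorhabditis elegans that lie at protein-coding gene starts. A site was taken when the summit of its peak in the conservative list for both replicates together lay on X, within 500 bp of an annotated protein-coding gene start, and more than 500 bp from every tRNA gene start. This gave 275 sites, which are 6.43% of the 4277 sites in that list and 29.4% of its 936 X sites. Within 500 bp of them lay the starts of 293 genes, and 268 of these are the nearest start of at least 1 site. The data are chromatin immunoprecipitation followed by sequencing (ChIP-seq) from whole L4 larvae, the last larval stage, labelled as 48 hours old and synchronised by starving the hatched L1 larvae. Both samples, numbered by the labels as biological replicates, come from strain RW12311, whose hmg-1.1 gene carries a CRISPR-made insertion (st12311) of TY1, EGFP and 3xFLAG tags, and both were precipitated with an anti-GFP antibody. There is 1 group, with no untagged strain or other stage beside it, and a signal from whole animals does not tell which cells gave it. The deposited lists hold no read counts, so the depth behind a value is unknown.

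HMG-box proteins of this class bind DNA in the minor groove and bend it, with little preference for one sequence, and they are abundant components of chromatin. The C. elegans X chromosome carries few genes of the germline and of basic cell maintenance, is transcribed little in the germline, and in hermaphrodites is bound by a dosage compensation complex that lowers its transcription. Many worm transcripts are trans-spliced, which removes their original 5′ end, so that an annotated gene start can lie downstream of the true promoter.

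To show what the DNA at these sites looks like, 8 windows are given here: 6 from the 12 strongest sites, the strongest site between divergent genes, and a site in an intron of another gene. Each covers up to 100 bp on either side of the summit, without annotated exons, and reads 5′ to 3′ on the strand of the nearest gene (build WBcel235, the same as ce11, NCBI RefSeq copy). Capitals mark matches on either strand to the motif GAGAGA, to the motif CTGCGTC or to a run of A written AAAAAA, which are those found in these 8 windows out of 9 searched. Overlapping matches run together, as they do for 2 of these motifs at F17E5.2.
serp-1.1, chrX:15841171-15841371, plus strand: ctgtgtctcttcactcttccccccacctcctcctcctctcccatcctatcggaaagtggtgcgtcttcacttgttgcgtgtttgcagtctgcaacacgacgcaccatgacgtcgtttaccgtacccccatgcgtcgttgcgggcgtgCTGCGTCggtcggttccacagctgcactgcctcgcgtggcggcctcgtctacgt
hsp-3, chrX:6092125-6092258, minus strand: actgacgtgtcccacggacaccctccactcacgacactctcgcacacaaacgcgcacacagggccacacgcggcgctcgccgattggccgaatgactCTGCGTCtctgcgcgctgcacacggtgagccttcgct
F17E5.2, chrX:12393905-12394105, plus strand: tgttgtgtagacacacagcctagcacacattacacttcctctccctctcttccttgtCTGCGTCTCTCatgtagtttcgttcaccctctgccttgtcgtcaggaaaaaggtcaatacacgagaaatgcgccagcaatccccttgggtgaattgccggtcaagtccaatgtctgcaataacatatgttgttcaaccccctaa
zfp-3, chrX:1446832-1447032, minus strand: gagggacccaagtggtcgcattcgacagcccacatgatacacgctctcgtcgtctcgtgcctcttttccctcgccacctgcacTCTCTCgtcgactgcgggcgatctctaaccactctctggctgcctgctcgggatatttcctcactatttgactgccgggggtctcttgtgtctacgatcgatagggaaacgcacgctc
eef-1A.2, chrX:7823211-7823384, plus strand: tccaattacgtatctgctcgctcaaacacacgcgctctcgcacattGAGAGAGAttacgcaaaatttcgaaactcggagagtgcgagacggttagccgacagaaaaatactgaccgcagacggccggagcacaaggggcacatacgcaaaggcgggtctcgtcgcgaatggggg
F46H5.2, chrX:7265063-7265263, plus strand: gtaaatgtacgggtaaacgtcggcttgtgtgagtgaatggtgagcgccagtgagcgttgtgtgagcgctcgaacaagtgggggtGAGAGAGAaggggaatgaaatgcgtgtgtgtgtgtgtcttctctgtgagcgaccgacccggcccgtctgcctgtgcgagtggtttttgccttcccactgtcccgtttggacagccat
trap-2, chrX:768178-768378, minus strand: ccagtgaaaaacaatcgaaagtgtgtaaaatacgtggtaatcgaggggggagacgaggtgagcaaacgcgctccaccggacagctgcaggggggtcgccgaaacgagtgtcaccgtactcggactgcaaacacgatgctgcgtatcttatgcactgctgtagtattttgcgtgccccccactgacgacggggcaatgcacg
hrg-1, chrX:4016222-4016404, minus strand: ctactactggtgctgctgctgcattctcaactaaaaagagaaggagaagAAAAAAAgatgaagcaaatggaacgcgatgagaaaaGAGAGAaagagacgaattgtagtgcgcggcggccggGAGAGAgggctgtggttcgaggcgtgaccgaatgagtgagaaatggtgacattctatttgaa

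The windows at serp-1.1 and hsp-3 are rich in G and C, at 60.7% and 64.9%. Those at eef-1A.2 and F46H5.2 hold an uninterrupted GA repeat long enough to overlap GAGAGA more than once. The window between trap-2 and ile-2 holds none of the searched motifs.

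The strongest site lay at -301 bp from the start of serp-1.1 (WBGene00010337), where minus denotes upstream. Its peak signal, an enrichment value given by the authors whose scale is not stated, was 299 in replicate 1 and 308 in replicate 2, and 608 in the joint list. That is rank 45 of the 4277 sites. In both replicates it was the highest value of any of the 275 sites. The next was epn-1, which encodes the endocytic adaptor epsin, with a signal of 276 in replicate 1 and 284 in replicate 2 (joint rank 51, at -481 bp). At puf-9, a Pumilio-family RNA-binding protein gene, the signal was 239 and 297 in replicates 1 and 2 (rank 60, at -291 bp). T13C5.6 followed with 232 and 297 (rank 62) and then hsp-3, which encodes the Hsp70 chaperone of the endoplasmic reticulum, with 224 and 277 (rank 76). These 5 are the only X gene-start sites among the 100 strongest sites of the genome, and none was among the 25 strongest.

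A step below them came ZC506.1, with a signal of 161 in replicate 1 and 242 in replicate 2 (joint signal 406). F17E5.2 had 176 and 209, zfp-3 163 and 226, and F13C5.2 166 and 205. eef-1A.2, a gene for translation elongation factor 1A, had 139 in replicate 1 and 219 in replicate 2. Its rank in the 2 replicates' ranked lists was 355 and 131, so it stood higher in replicate 2. The other sites in the 25 strongest included epg-7, an autophagy scaffold gene, with 168 and 204, atf-6, a transcription factor of the endoplasmic reticulum stress response, with 169 and 186, and uggt-1, the folding sensor for glycoproteins, with 151 and 201.3. Also among them were kin-29, a kinase of the salt-inducible family (156 and 184), vha-12, a subunit of the vacuolar proton pump (167 and 189), rpl-11.2, a ribosomal protein (132 and 198), unc-115, an actin-binding protein of axons (149 and 188), and dpy-23, a subunit of the AP2 clathrin adaptor (150 and 181). All 25 overlapped the thresholded lists of both replicates. At sym-4 the replicates were farthest apart in rank within these 25, with rank 588 in replicate 1 (signal 112) and rank 138 in replicate 2 (signal 215).

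Over all 275 sites the joint signal had a median of 136 (quartiles 89.3 and 191, range 9.91 to 608) and the median rank was 1618. X sites away from gene starts had a lower median of 96.2 but held 14 of the 25 strongest sites. Autosomal sites at gene starts, chosen by the same rule, had a median of 117. The joint list and the replicates' lists have different signal scales, so that only ratios within a list are set side by side. The ratio of the X to the autosomal gene-start median was 1.17 in the joint list, 1.02 and 1.05 in the thresholded lists of replicates 1 and 2, and 1.06 among joint sites with a global irreproducible discovery rate (IDR) of at most 0.001. Against X sites away from starts the ratio was 1.41, 1.11, 1.19 and 1.03 in the same order.

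**Figure D1:**
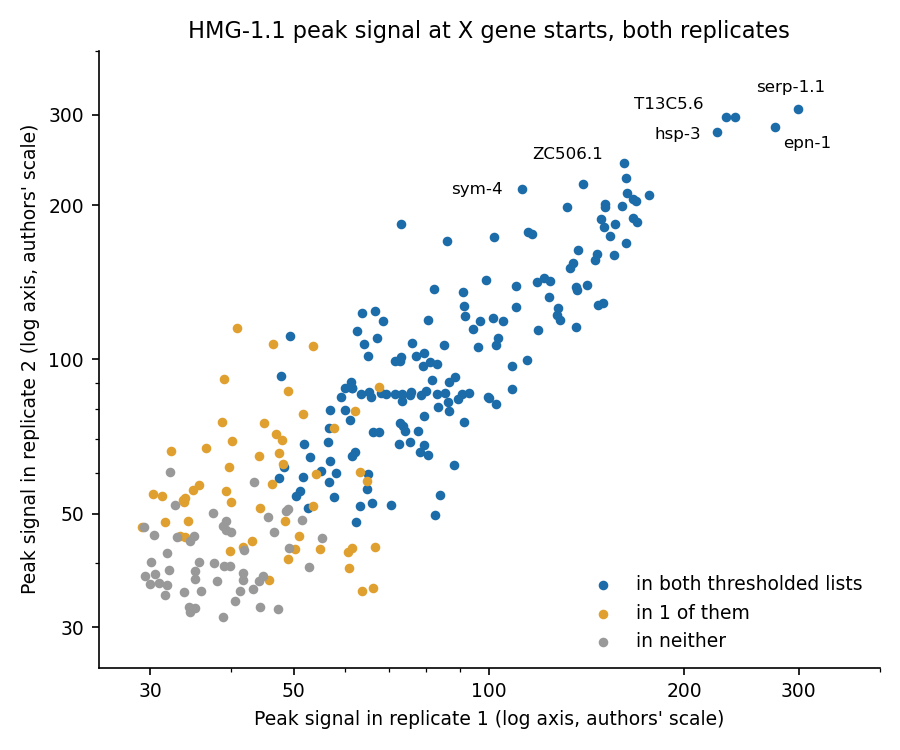
Peak signal of X gene-start sites in replicate 1 (x axis) and replicate 2 (y axis), both log axes in the authors' unstated unit, for the 267 sites with a peak within 150 bp in both ranked lists. Each point is a site, coloured by whether it overlaps the replicates' thresholded lists; serp-1.1, epn-1, puf-9 (the unlabelled point beside T13C5.6), T13C5.6 and hsp-3 stand at the top in both, and the sites in neither list are at the low end of both axes.

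The replicates ordered these sites alike, but the joint list was selected on IDR, which favours peaks ranked alike in both replicates. The values of this paragraph are therefore no independent measure of agreement. A peak within 150 bp of the joint summit was present in the ranked list of replicate 1 for 269 sites and of replicate 2 for 271. Signal ran from 29.1 to 299 in replicate 1 and from 31.4 to 308 in replicate 2. Spearman's rho across the 267 sites with both was 0.838, and 43 of the 50 strongest in replicate 1 were also among the 50 strongest in replicate 2; the ranked lists share the control and the genome, and sites are not independent replicates. The median site stood at 3.43% ± 0.219 (SD, n = 2 replicates) of the way down the ranked lists.

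By the stricter measure, 162 of the 275 sites (58.9%, 95% Wilson interval 53.0 to 64.6) overlapped a peak of both replicates' own thresholded lists. Among the other 4002 sites of the joint list the share was 47.2%. Intervals here cover counting error over sites or genes only, and neighbouring sites are not independent. Of the rest, 16 overlapped the list of replicate 1 only, 41 that of replicate 2 only, and 56 neither. The split followed signal: all of the 68 strongest sites (signal 192 to 608) were in both lists, against 4 of the 68 weakest. Those 4, at dhs-25, act-4, tmbi-4 and F13C5.1, were weak summits with joint signals of 9.91 to 32.3. At dhs-25, act-4 and tmbi-4 the weak peak overlaps the main peak of the same gene. The strongest sites in neither list lay at cyn-8, a cyclophilin gene (signal 49.0 in replicate 1 and 51.1 in replicate 2), hid-1, a gene of dense core vesicle biology (48.7 and 50.6), and tag-123 (51.5 and 48.5). Applied to each replicate's own list, the same rule gave 191 sites at 191 genes in replicate 1 and 245 sites at 234 genes in replicate 2, and 184 and 212 of those genes also have a site in the joint list.

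Most of the sites stood in front of the gene. The median summit position was -173 bp (quartiles -294.5 and -75 bp), and 240 of 275 summits (87.3%, interval 82.8 to 90.7) lay upstream of the nearest start. Autosomal gene-start sites had a median of -146.5 bp and 82.5% upstream (80.4 to 84.5), so these shares have overlapping intervals. The fullest 100 bp of the X distribution were those beginning at -200 bp, with 74 sites. The 35 sites downstream of the start were weaker, with a median signal of 89.2. It was 149 for the 74 sites just named and 159 for the 24 sites farther than -400 bp. The lowest upstream range of 100 bp, from -300 to -201 bp, had 128 at 53 sites. Autosomal gene-start sites had a median of 91.0 downstream and of 118 to 134 in the upstream ranges. By annotation, 233 summits (84.7%) were between protein-coding genes, 23 in a 5′ untranslated region, 14 in an intron and 5 in a coding exon.

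**Figure D2:**
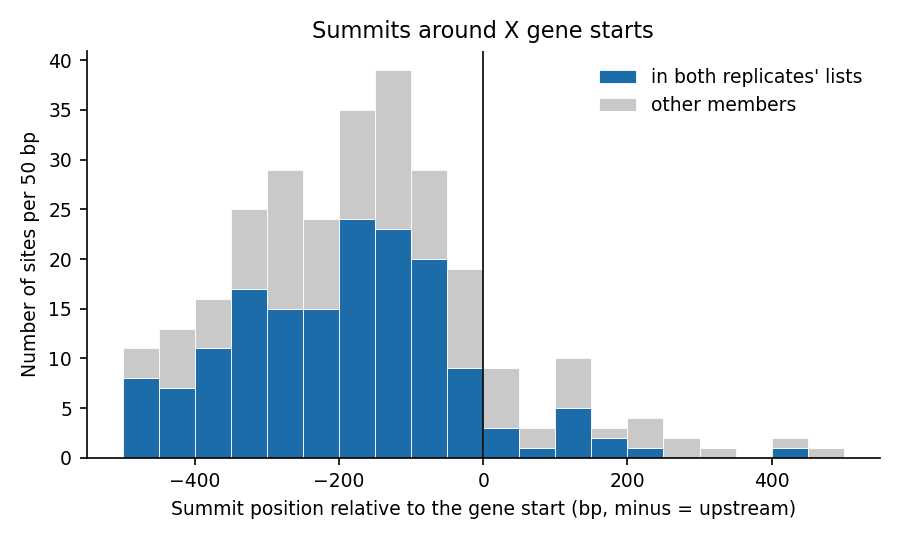
Number of X gene-start summits per 50 bp (y axis) by position relative to the nearest gene start (x axis, bp, minus upstream), with sites in both replicates' thresholded lists in blue and the others stacked in grey. Of the 275 summits 240 lie left of the start line.

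The closest summits to a start were those at snrp-40.1, a gene for a spliceosome component (at -3 bp, signal 146 in replicate 1 and 156 in replicate 2), R04E5.9 (at -3 bp, 121 and 144) and ccdc-149 (at 4 bp, 33.0 and 44.9). The limit of 500 bp passed through a populated range. Just inside it were lsd-1, a histone demethylase gene, at -500 bp with a joint signal of 85.0, nfya-1, a subunit of the NF-Y transcription factor, at -499 bp with 179, and grk-1, a kinase acting on G protein-coupled receptors, at -497 bp with 251. Just outside it were the sites nearest to F40B5.2 (502 bp, 196), C07A12.7 (-507 bp, 87.7) and F35A5.8 (508 bp, 129).

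The share of isolated starts at these sites had an interval that includes that of all X genes, and the share of divergent pairs one above it. An isolated start, with no other protein-coding gene within 500 bp upstream and no further start within 500 bp of the summit, was found at 217 of 275 sites (78.9%, interval 73.7 to 83.3), against 79.9% of all 2731 X genes. On the autosomes 53.3% of sites (50.7 to 56.0) and 59.7% of genes were of this kind. Divergent pairs, in which the genes point away from each other, held 20 X sites (7.27%, interval 4.76 to 11.0), against 23.9% of autosomal sites (21.7 to 26.2). By gene, 3.95% of X genes and 14.2% of autosomal genes would be placed in such a pair by a summit at -173 bp, below the interval of the site share on both. Another 22 sites (8%) followed the end of a gene on the same strand, 10 lay at a start whose upstream DNA is inside another gene, and 6 had several starts in another order.

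**Figure D3:**
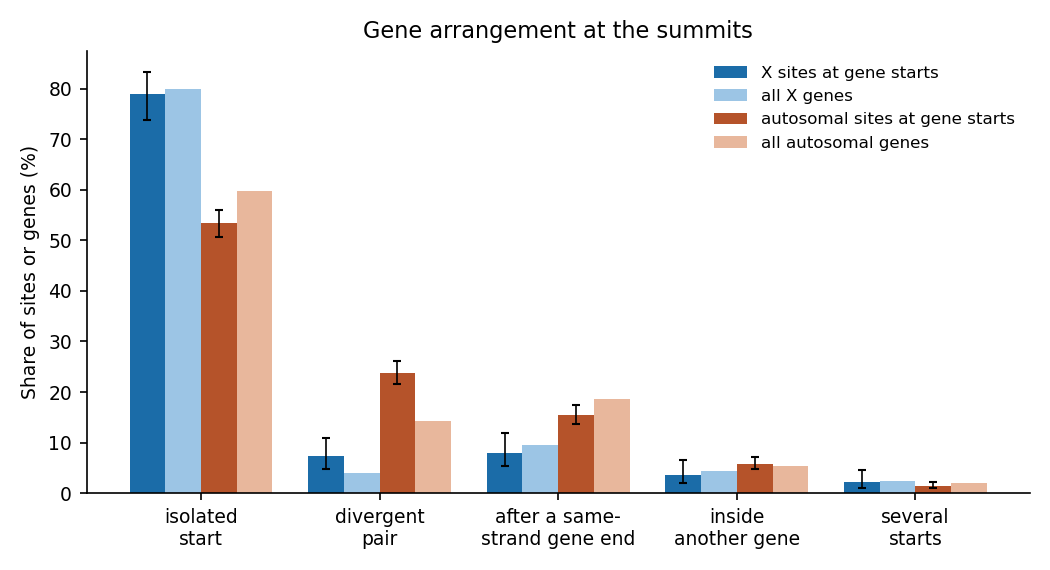
Share (y axis, %) of X sites, all X genes, autosomal sites and all autosomal genes in each of 5 gene arrangements (x axis), with 95% Wilson intervals on the site shares. Isolated starts make up 78.9% of the X sites and 53.3% of the autosomal ones, against 79.9% and 59.7% of the genes.

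Leaving out sites near tRNA starts, 275 of 787 X sites were at protein-coding gene starts (34.9%, interval 31.7 to 38.3), against 42.7% of autosomal sites (41.0 to 44.4). The difference of -7.77 percentage points was -5.09 in the list of replicate 1 and -3.03 in that of replicate 2. Counted by gene, 293 of the 2731 X protein-coding genes (10.7%, interval 9.62 to 11.9) had such a site. Over all chromosomes the share was 9.56%, and over the autosomes 9.37% (8.95 to 9.82), with a range from 6.01% on chromosome V to 13.9% on chromosome I. In the thresholded lists of replicates 1 and 2 alone the X share was 6.99% and 8.57%. Of the 293 genes, 285 had 1 site and 8 had 2. For isolated starts the X share was above the autosomal one, at 9.76% (8.59 to 11.1) against 6.81% (6.33 to 7.31). Of the 108 X genes in a divergent pair 38 had a site (35.2%, 26.8 to 44.6), against 24.9% on the autosomes (23.2 to 26.7). Genes that share 1 site are counted together here, so the genes of a pair are not independent.

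The share also varied with the distance to the next gene upstream. Among X genes with 250 to 499 bp of free upstream DNA, 42 of 155 had a site (27.1%, interval 20.7 to 34.6), more than in any other distance range. With less than 250 bp it was 25 of 343 (7.29%), and with 5000 bp or more 54 of 672 (8.04%, 6.21 to 10.3). Autosomal genes with 250 to 499 bp were at 18.5%. A site within 500 bp of the starts of 2 genes counts for both in these shares, as 26 of the 275 sites do. The part of this double counting in the range from 250 to 499 bp was not tested. The X genes with a site had a median gap of 1776 bp (2189 bp for other X genes), were longer, with a median of 3226 bp against 2433 bp, and more often had a gene name rather than a sequence name only, at 61.1% (55.4 to 66.5) against 47.8% (45.8 to 49.8). These contrasts are not particular to X. Autosomal genes with a site had a median gap of 540 bp against 881 bp for other autosomal genes. Their median length was 2439 bp against 1930 bp, and 69.6% against 53.9% had a gene name.

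**Figure D4:**
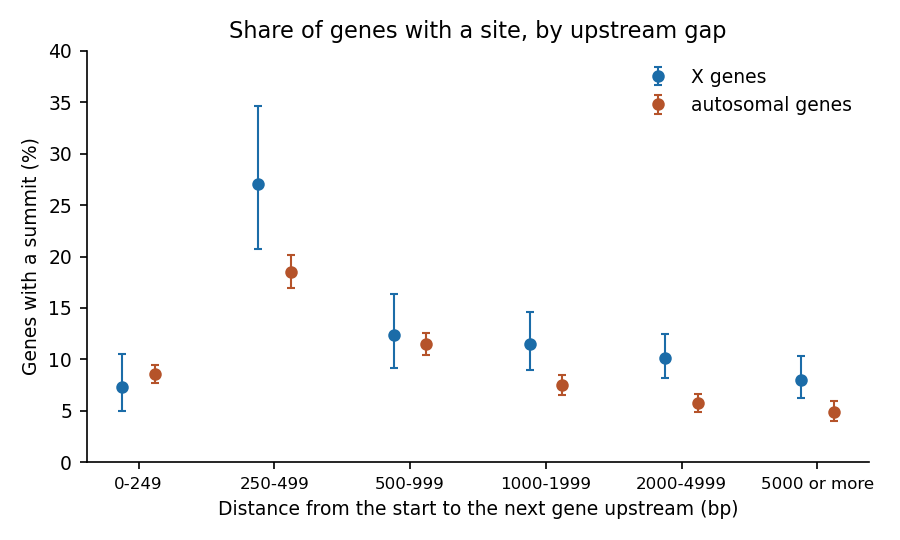
Share of protein-coding genes with a site within 500 bp of the start (y axis, %, with 95% Wilson intervals) by distance to the next gene upstream (x axis, bp), for X and autosomal genes. On X the range from 250 to 499 bp stands at 27.1% and the others between 7.29% and 12.3%. A site near the starts of 2 genes counts for both.

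The strongest divergent sites were those between trap-2, a subunit of the translocon-associated complex, and ile-2 (signal 153 in replicate 1 and 174 in replicate 2), between snrp-40.1 and F08G12.3, and between C27C12.4 and C27C12.1 (146 and 161). Their joint ranks were 276, 323 and 354. After a same-strand gene end the leaders were T13C5.6, uggt-1 and ucr-2.2. Sites inside another gene were weaker, with a highest joint signal of 185 at hst-6, a heparan sulfate sulfotransferase gene, followed by hrg-1, a heme transporter gene, with 80.9 in replicate 1 and 98.8 in replicate 2. The 6 sites with several starts had the lowest median, 74.6, and none of them was in both replicates' thresholded lists.

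Among 22 gene lists, those of basic cell functions have few members on X, but many of their genes had a site, on X and on the autosomes. The shares over all genes to read them against are 9.56% in the genome and 10.7% on X, and the lists were drawn up with earlier results of these data known and get no test. Of 6 X genes for mitochondrial energy supply 5 had a site (83.3%, interval 43.6 to 97.0), against 45.5% of the 44 autosomal genes of that list. At ucr-2.2, a core subunit of respiratory complex III, the signal was 116 in replicate 1 and 175 in replicate 2. At sdha-1, the flavoprotein of succinate dehydrogenase, it was 91.5 and 127. ucr-2.1 shared a divergent site with nmat-1 (108 and 97.0), asg-2, an ATP synthase subunit gene, shared one with glr-6 (81.7 and 90.9), and asb-2, another ATP synthase subunit gene, was the remaining one. All 3 X genes for translation factors, eef-1A.2 and the cap-binding proteins ife-4 (79.2 and 96.9) and ife-2 (59.9 and 79.5), had a site, as did rpl-11.2, which is 1 of 2 X genes for cytosolic ribosomal proteins. The X interval was 43.9 to 100% for the translation list. For the ribosomal list it was 9.45 to 90.5%, which includes the 10.7% of all X genes. On the autosomes 31.4% of the translation list and 72.8% of the ribosomal list had a site. For protein folding and degradation the share was 4 of 11 on X (36.4%, interval 15.2 to 64.6) and 39.1% on the autosomes. The 4 were hsp-3, dnj-14 and the protein disulfide isomerase genes pdi-6 (127 in replicate 1 and 126 in replicate 2) and pdi-2. dnj-14, a J-domain cochaperone gene, shared a divergent site with glit-1, whose start was the nearer.

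The sex determination and dosage compensation list had 3 of its 6 X genes with a site (50%, interval 18.8 to 81.2) and 2 of 15 autosomal ones (13.3%), beside 9.56% of all genes. sdc-2, which brings the dosage compensation complex to X, had 134 in replicate 1 and 154 in replicate 2 (rank 434). ceh-39, a homeobox gene and one of the signals that count X chromosomes, had 75.4 and 68.9. sdc-1, a zinc finger gene of the same complex, had 40.1 in replicate 1 and 69.2 in replicate 2 and was in the thresholded list of replicate 2 only. lin-14, the heterochronic regulator of larval fates, was the only marked gene of 3 X genes in its list, at -147 bp with 71.6 and 99.3. The interval of that share (33.3%, 6.15 to 79.2) includes the 9.56% of all genes, and 1 of 7 autosomal genes of the list had a site (14.3%). lin-15B, a repressor of germline genes in the soma, had 31.3 and 54.1. It was the only marked gene of 7 X genes in the list of HMG-box and synMuv chromatin genes (14.3%, interval 2.57 to 51.3). On the autosomes 37.5% of the 24 genes of that list had a site.

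Of the axon and synapse list 5 of 14 X genes had a site (35.7%, interval 16.3 to 61.2; autosomes 15.9%): unc-115, syd-2 (liprin-alpha, 67.0 in replicate 1 and 110 in replicate 2), sax-1, a kinase gene that shares a divergent site with R11G1.2 (78.2 and 66.0), sad-1 and unc-18. Nuclear hormone receptors had 4 of 27 (14.8%, interval 5.92 to 32.5), led by nhr-1 (86.1 and 170), nhr-32 (83.5 and 80.8) and nhr-35 (74.2 and 72.6), and homeobox genes 2 of 26 (7.69%, 2.14 to 24.1), ceh-39 and ceh-93 (56.7 and 57.6). Muscle genes had 2 of 19 (10.5%, 2.94 to 31.4), act-4, an actin gene (88.5 and 92.3 at its main summit), and unc-98 at a site it shares with F08C6.18. Germline and meiosis genes had 1 of 6, puf-9. The intervals of the nuclear hormone receptor, homeobox, muscle and germline lists include the 9.56% of all genes.

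Several other lists were at the low end on X. Ion channels and gap junctions had 3 of 61, which were glr-6, unc-1 (53.4 in replicate 1 and 106 in replicate 2) and acr-2, an acetylcholine receptor subunit gene (56.8 and 63.3). Neuropeptides and insulins had 1 of 36, nlp-76, whose summit is downstream of the start at 218 bp and in neither replicate's list. Detoxification had 1 of 25, ugt-46, at 124 bp and also in neither list. No site was found at any of 42 receptors for neuropeptides and amines (upper limit of the interval 8.38%), 31 chemoreceptors (11.0%), 30 cuticle collagens (11.4%), 20 intestinal genes (16.1%), 15 growth factor, Wnt and Notch genes (20.4%) or 20 C-type lectin and F-box or MATH genes (16.1%). The sperm protein list has no X gene. Except for the neuropeptide and amine receptors, the X intervals of these lists include the 9.56% of all genes. On the autosomes 16.4% of the 67 growth factor, Wnt and Notch genes had a site. The X interval of that list, with its upper limit of 20.4%, includes this share. The other lists of this paragraph ranged from 0% (intestinal genes) to 3.30% (detoxification) on the autosomes.

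The summits were local maxima of base composition. The summit base and the 50 bp on either side were 50.4% G+C on average, against 34.8% in windows of the same length 500 bp away, a difference of 15.6 ± 9.11 percentage points (SD over 275 sites), and the summit was higher at 255 sites. At autosomal gene-start sites the difference was 9.28 ± 9.89 and at X sites away from starts 14.2 ± 10.1. The lists of replicates 1 and 2 gave 16.0 and 15.3 for the X gene-start sites. It moved with signal: the 68 strongest sites had 54.2% ± 5.59 G+C at the summit and the 68 weakest 44.9% ± 8.59 (SD over sites). The control library was not analysed here, and the part of base composition in the signal was not tested.

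**Figure D5:**
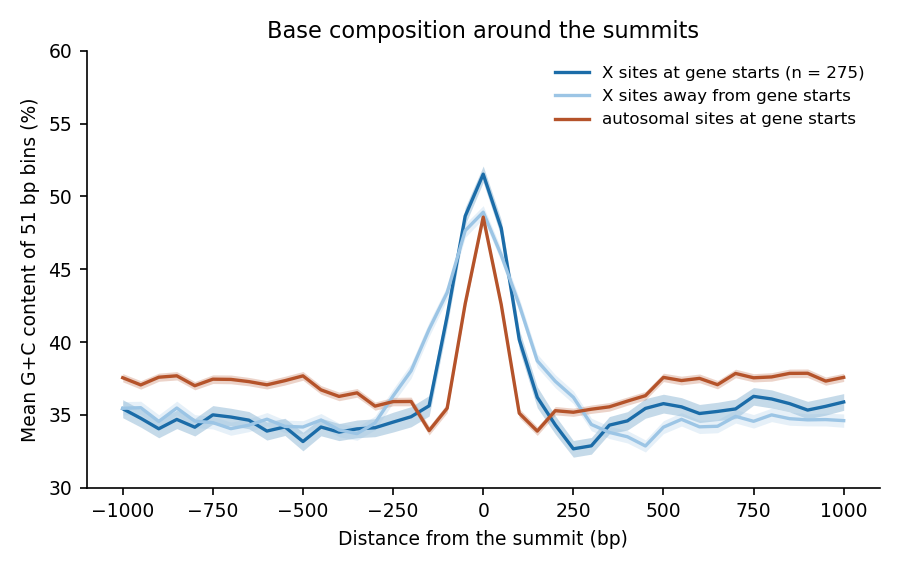
Mean G+C content in bins of 51 bp (y axis, %, shading 1 SEM over sites) by distance from the summit (x axis, bp) for X gene-start sites, X sites away from starts and autosomal gene-start sites. The X gene-start sites rise from about the level of their flanks, 34.8%, to a peak within some 100 bp of the summit.

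Motif shares were counted in windows around the summits, and their relation to that composition was not tested. GAGAGA, searched like all motifs on both strands, was in 118 of the 275 windows that reach 100 bp to either side of the summit (42.9%, interval 37.2 to 48.8), in 205 of 512 X sites away from starts and in 35.3% of autosomal gene-start sites (32.8 to 37.9). In windows of equal length, from -300 to -100 bp of all 2731 X starts, it was in 17.3%, and in windows flanking the sites in 55 of 550. Sites with it had a median signal of 156, those without 117, and it was in 55.9% of the 68 strongest sites (44.1 to 67.1) and 30.9% of the 68 weakest (21.2 to 42.6). AAAAAA was in 36.0% of windows (64.6% of all X starts) and TATAAA in 10.2% (23.7%). TGATAA was in 6.91% (21.7%), with 4.19% of the sites in replicate 1's list and 4.90% in replicate 2's. TTTCAG, which resembles a splice acceptor, was in 9.09% (23.0%). X sites away from starts had these motifs in 41.6%, 10.9%, 7.62% and 10.7% of windows, in the same order. For autosomal gene-start sites the shares were 58.7%, 14.4%, 9.56% and 22.6%.

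Among the motifs with more G and C, GGGCGG was in 9.82% of windows (5.05% of all X starts) and CACGTG in 5.09% (3.48%). X sites away from starts had them in 8.98% and 4.88%, and autosomal gene-start sites in 12.3% and 5.56%. GCGCAGG, the core of the sequence that recruits the dosage compensation complex in C. elegans, was in 9 of 275 windows (3.27%, interval 1.73 to 6.10), in 5.27% of X sites away from starts, 1.33% of autosomal gene-start sites (0.845 to 2.098) and 0.586% of all X starts. The genes at those 9 windows were R04E5.9, K07E3.2, sec-16A.2, jkk-1, lin-14, gcc-1, Y15E3A.5, F56C3.7 and apm-3. CTGCGTC, a motif added after the sequences were seen and without support of its own for that reason, was in 42 windows (15.3%, interval 11.5 to 20.0) and 2.38% of all X starts, but also in 17.6% of autosomal gene-start sites. A match describes letters in a window and is not a binding site of any factor.

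Other annotated genes were close to some of the sites. The start of a gene annotated as ncRNA lay within 500 bp of 46 of the 275 summits (16.7%, interval 12.8 to 21.6) and nearer than the protein-coding start at 39 of them, against 10.9% of autosomal gene-start sites and 23.4% of X sites away from starts. A snoRNA start was that close at 1 site, a lincRNA start at 2, a piRNA start at 3, and a miRNA start at 0. A further 14 X sites near a protein-coding start were left out by the rule because a tRNA start was also within 500 bp.

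Along the chromosome the sites were spread out. The left, middle and right parts of X, of equal length, had sites at 11.4%, 10.3% and 10.5% of their genes, with overlapping intervals, and single megabases ranged from 5.56% to 16.1%. Neighbouring summits were a median of 39340 bp apart, and 8 neighbouring pairs were within 1000 bp. Most genes with 2 summits had a main one and a weaker one in an overlapping peak, as at act-4, where the joint signal was 177 at -60 bp and 12.5 at 140 bp, and at dhs-25, a short-chain dehydrogenase gene, where it was 154 at -121 bp and 32.3 at 78 bp. At nhx-5, a sodium and proton exchanger gene, the 2 peaks did not overlap, and the signal was 104 at -323 bp and 67.6 at 145 bp.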

How the data were processed

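The labels give 2 samples, biological replicates of 1 group, with nothing more said of what separates them. Aligner and peak caller were not given in the sources used here. The authors deposited peak lists on ce11, per the labels: ranked and IDR-thresholded lists for each replicate and for both together. Each peak has a score deposited by the authors (a scaled IDR score, at least 830 in the thresholded lists), a signal deposited by the authors (an enrichment whose scale is not stated, and used within a list, by rank, or between lists as a ratio of medians), the deposited −log10 of the q-value and the deposited −log10 of the global IDR. Of the X gene-start sites 10.2% have a q-value above 0.05, since the list was selected on IDR. No read counts come with the peaks, which leaves the depth unknown, and the control was not analysed here.

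Summits were compared with Ensembl release 115 gene starts (outermost annotated 5′ end) in Python 3.11.15 with numpy 2.4.6, and the classification was tested on 700 made-up sites. Shares have 95% Wilson intervals; no p-value was computed, since sites are not replicates. The members and the 22 gene lists were chosen with earlier results of these data known. Named genes are the 25 strongest sites, up to 3 of each list and arrangement, the 3 nearest to the limit on either side and to the start, 5 genes with 2 sites, and the extremes of replicate overlap. The genes of the GCGCAGG windows and asb-2, pdi-2, dnj-14, sad-1 and unc-18 were named in addition, after their values were seen.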

Additional observations from a re-analysis of the deposited data

How the results depend on the processing

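No setting turned a direction. All 44 differences between X and autosomes kept their sign. So did all 35 between X and autosomal gene-start sites, and all 11 between X sites at and away from starts. These counts include a cut at a global IDR of at most 0.01. Every site of the joint list already met that cut, so it could change nothing. Signal differences carry the scale of their own list, and the joint and single-replicate scales differ, so part of a shift between them is scale. The signal lead of X gene-start sites over autosomal ones was 19.4 in the joint list, 16.5 at 250 bp, 17.4 at 1000 bp, 13.3 with any transcript start, 13.5 in the other thresholded list, 17.3 at a q-value of at most 0.05, 17.4 with 1 summit for each group of touching peaks, 9.89 at a global IDR of at most 0.001 (a setting chosen after seeing the data), and 1.70 and 3.77 in the lists of replicates 1 and 2 alone. The lead over X sites away from starts was 39.9, and in the same order 27.9 (250 bp), 31.2 (any transcript), 33.1 (other list), 34.6 (q-value), 35.8 (touching peaks), 4.89 (IDR 0.001), 7.61 and 13.2 (replicates alone), and 31.6 with tRNA genes ignored. The median signal was 130 and 131 at 250 and 1000 bp, 128 with any transcript start, 128 in the other list, 171 at IDR 0.001, 145 by q-value, and 75.7 to 81.7 with a replicate left out.

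The number of sites was 175 and 374 at 250 and 1000 bp, 325 with any transcript start, 182 at IDR 0.001 and 191 to 245 with a replicate left out, against 275. The share of X sites at starts, 34.9% in the joint list, was 22.2% and 47.5% at 250 and 1000 bp, 41.3% with any transcript start, 30.9% with tRNA genes ignored, 42.7% at IDR 0.001, 37.9% by q-value and 39.1% to 42.0% with a replicate left out. The share of X genes was 6.63% and 14.1% at 250 and 1000 bp, 12.2% with any transcript start, 7.07% at IDR 0.001 and 6.99% to 8.57% with a replicate left out; its excess over the autosomes was 0.503, 1.81 and 2.13 percentage points in the first 3, 1.73 with tRNA genes ignored and 1.33 to 1.75 with a replicate left out. The median position was -111 and -215 bp at 250 and 1000 bp, -181 bp at IDR 0.001 and -186 to -176 bp with a replicate left out. Isolated starts made up 73.1% and 82.4% at 250 and 1000 bp, 82.2% with any transcript start, 81.3% at IDR 0.001 and 80.1% to 83.3% with a replicate left out; their excess over the autosomes was 21.2, 32.6, 23.8 and 27.6 in the same settings, 27.7 in the other list, 26.8 by q-value, 26.7 with touching peaks joined and 28.9 to 29.7 with a replicate left out. Divergent pairs made up 4.57% at 250 bp and 8.24% at IDR 0.001. The share in both replicates' lists was 89.0% at IDR 0.001 and 51.6% when 50% overlap was required. The G+C difference was 16.9 at IDR 0.001, 16.6 by q-value, 16.1 with touching peaks joined, 12.8 in windows reaching 100 bp to either side and 14.7 with flanks 1000 bp away; its excess over autosomal gene-start sites was 5.72 at 1000 bp, 5.55 with any transcript start, 7.34 and 5.44 in those windows and flanks and 5.26 to 5.95 with a replicate left out. GAGAGA was in 37.1% at 250 bp, 48.4% at IDR 0.001, 29.1% in windows reaching 50 bp to either side and 44.1% to 50.3% with a replicate left out. TGATAA, in 6.91% of windows, was in 3.30% at IDR 0.001, 4.86% by q-value, 2.91% in the shorter windows and 4.19% to 4.90% with a replicate left out. The cause of these shifts was not tested beyond what the distance, window and list themselves change.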
